A study of Mus musculus with 36 samples.

Results

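The integrated stress response and the targets of its transcription factor ATF4 were followed through 37 mouse genes, listed by name for their known place in this pathway and matched by Ensembl ID and symbol. All 37 were found among the 21968 genes counted. They comprise 6 transcription factor genes, 4 genes of the kinase and translation control step, 9 feedback and stress effectors, 5 genes of serine, glycine and one-carbon metabolism, 5 of other amino acid and mitochondrial metabolism, 4 amino acid transporter genes and 4 aminoacyl-tRNA synthetase genes. The levels were measured in single mouse oocytes at the germinal vesicle stage, before meiosis resumes, each sequenced as a library of its own. The 36 oocytes carry 1 of 2 genotype labels: 18 from 4 mice (a to d) are labelled Drp1_KO and 18 from 5 mice (1 to 5) are labelled Drp1_WT. The study is about losing Drp1 from oocytes; this dynamin-related GTPase, the product of Dnm1l, cuts mitochondria in fission. The labels name no treatment, and the sources used here do not give the strain, the age of the mice, the driver of the deletion or the deleted exons. Mice, each with 3 to 5 oocytes, served as replicates (n = 4 against n = 5).

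The integrated stress response begins with kinases that phosphorylate the initiation factor eIF2, which lowers general translation while the mRNA of ATF4 is translated more. ATF4 then pairs with C/EBP family partners at composite DNA elements of genes for amino acid uptake, amino acid synthesis, tRNA charging and redox balance, and for a phosphatase subunit that closes the loop. In other cells, mitochondrial stress reaches the pathway through the protease OMA1, the messenger DELE1 and the kinase HRI, encoded by Eif2ak1. Fully grown oocytes store mRNA and make little new RNA, and mRNA counts do not show ATF4 protein or phosphorylated eIF2.

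The composite element is the sequence feature that the listed targets are known for, so it was searched in the promoter windows of RefSeq (GRCm38.p6), which run from 250 bases before to 50 bases after the start site. The letters searched were TGATGNAA, on both strands, with no other motif. Windows were found for 32 of the 37 members, and 11 of them (34.4%) held the letters, beside 1219 of 27025 genes with a window (4.51%). The sites below were chosen to show each form of the core and members from high to low level, printed 5′ to 3′ with the core in capitals.
Slc7a11, outer site (chr3:50443662-50443689, minus strand): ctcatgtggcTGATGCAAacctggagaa
Slc7a11, inner site (chr3:50443643-50443670, plus strand): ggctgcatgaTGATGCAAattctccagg
Asns (chr6:7693215-7693242, minus strand): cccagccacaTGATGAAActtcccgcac
Atf3 (chr1:191183426-191183453, plus strand): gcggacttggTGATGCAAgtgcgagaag
Chac1 (chr2:119351039-119351066, minus strand): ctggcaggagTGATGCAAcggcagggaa
Nupr1 (chr7:126625563-126625590, plus strand): aagccctgtcTGATGCAAtctggccctt
Pck2 (chr14:55540153-55540180, minus strand): tgtaagatacTGATGTAActttgaaggc
The 2 Slc7a11 sites lie on opposite strands and their printed windows overlap. Their cores begin at positions -66 and -47, counted in the direction of the gene from the start site. A match describes letters and is not a site shown to be bound.

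Depth was 3178509 to 7406895 counts per oocyte. Dnm1l, read first as a check of the labels, ran from 144 to 274 CPM (counts scaled to a common library size) in oocytes labelled Drp1_KO and from 234.5 to 322.5 CPM in 13 oocytes labelled Drp1_WT. In the other 5, from tubes 11 to 15 of mice 3 and 4, it ran from 116 to 156 CPM, which goes against their label. The 274 CPM belongs to tube 10 of mouse b, and the other oocytes labelled Drp1_KO reached at most 251.1 CPM. WT tube 29, at 234.5 CPM, lay below that value. WT tubes 10, 6 and 30 (254.5, 260.0 and 268.8 CPM) lay between 251.1 and 274 CPM. WT tube 29 also held 20.8 CPM of Mfhas1. That gene was at 19.4 to 39.0 CPM in the oocytes labelled Drp1_KO and at 1.08 to 5.47 CPM in the other oocytes labelled Drp1_WT. All directions below are therefore between labels. Oocyte markers (12 genes, all with counts) summed to 23010 to 26530 CPM per mouse in Drp1_KO and 23690 to 27900 CPM in Drp1_WT. Markers of granulosa and cumulus cells summed to 116.6 to 130.5 and 106.6 to 138 CPM, with 15 of 16 genes seen and Ptx3 at 0. Markers of immune, endothelial, stromal and epithelial cells summed to 33.6 to 151 and 37.6 to 61.3 CPM, with 14 of 15 seen and Cdh5 at 0. The 151 CPM belongs to mouse b, whose tube 10 alone held 563 CPM of the latter markers, against at most 77.5 CPM in any other oocyte. Most of this was from the immune markers Lyz2 (440 CPM), Cd68 (67.9 CPM) and Adgre1 (34.5 CPM). The endothelial marker Pecam1 was at 11.04 CPM in tube 10, the lowest of all oocytes.

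The members ranged from genes well above most oocyte mRNAs to genes near absence. Levels between genes were compared per kilobase of exon (RPKM). In mice labelled Drp1_WT the highest was Mthfd2, which encodes a mitochondrial folate enzyme, at 53.9 ± 8.06 RPKM (SD, n = 5), more than 93.7% of detected genes. Ddit3, the gene of the pro-apoptotic factor CHOP, followed at 52.03 ± 10.8 RPKM (SD, n = 5), Nars at 50.6 ± 6.08 RPKM, Slc3a2 at 50.2 ± 8.54 RPKM and Atf4 itself at 47.99 ± 4.43 RPKM (each SD, n = 5). The order of these 5 was not resolved, since neighbours differed by less than their SD. Sars came next at 32.2 ± 3.34 RPKM (SD, n = 5), lower than Atf4 by more than either SD. With the length of the longest coding transcript in place of all exons, the same 6 genes led, with Ddit3 first at 100.1 RPKM and Mthfd2 second at 90.2 RPKM.

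Several genes that are widely read as reporters of an active stress response were near the bottom. Trib3, whose product restrains ATF4, stood at 0.290 ± 0.276 RPKM (SD, n = 5) and Sesn2, a stress-induced regulator of mTORC1, at 0.224 ± 0.110 RPKM (SD, n = 5) in mice labelled Drp1_WT. Fgf21 and Nupr1, genes induced by stress in other tissues, stood at 0.213 and 0.165 RPKM, and Psat1, Atf5 and Pck2 at 0.0651, 0.0606 and 0.00983 RPKM. A count was seen in all 36 oocytes for 26 members, in 9 oocytes for Pck2 and in 10 for Fgf21. Within serine synthesis the levels were uneven: Phgdh, the first enzyme, stood at 11.1 RPKM, while Psat1, which acts after it, was seen in 16 oocytes only. The 11 members with the core in their promoter window ran from 0.00983 RPKM (Pck2) to 13.2 RPKM (Slc7a11) with a median of 1.08 RPKM, and the 21 without it had a median of 9.71 RPKM and reached 53.9 RPKM.

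**Figure D1:**
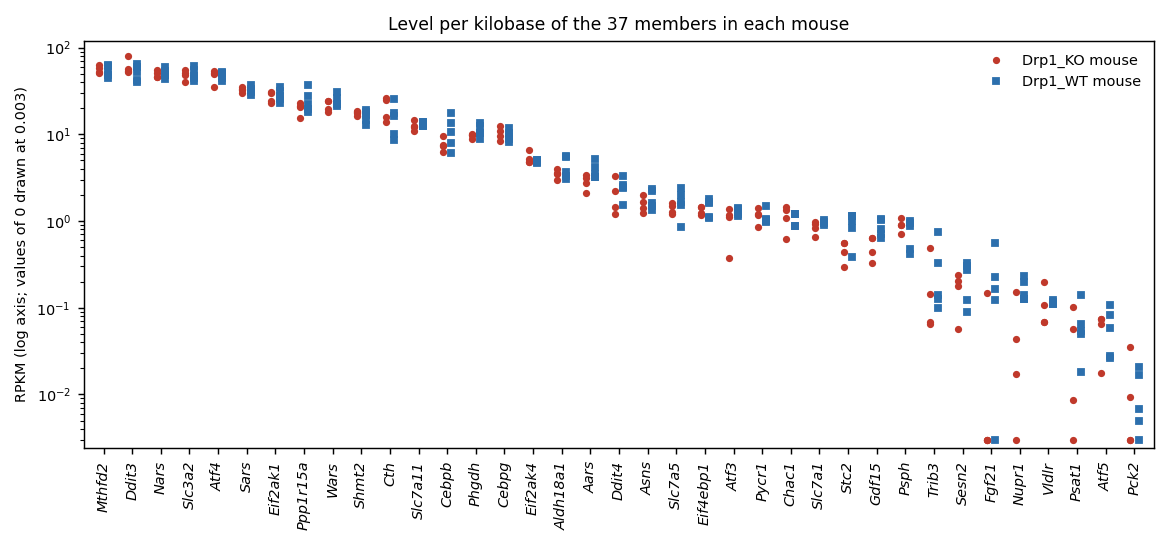
RPKM (log axis) of the 37 members in each mouse, 4 circles for Drp1_KO and 5 squares for Drp1_WT, ordered by the mean in Drp1_WT; values of 0 are drawn at 0.003. Mthfd2, Ddit3, Nars, Slc3a2 and Atf4 sit together near 50 RPKM at the left, Pck2 is lowest at the right, and the 2 labels overlap for every member.

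The comparison of the labels asks whether mRNA of the pathway differs between oocytes labelled Drp1_KO and Drp1_WT. Of the 37 members, 31 passed the filter on low counts and were tested; Atf5, Trib3, Nupr1, Fgf21, Psat1 and Pck2 were not. edgeR's quasi-likelihood test on counts summed per mouse called 0 members at a Benjamini-Hochberg adjusted p of 0.05, where 0.0156% of all tested genes were called. DESeq2 also called 0 (0.276% of genes) and so did limma-voom on single oocytes with mouse as a random effect (0.0844% of genes). At an unadjusted p under 0.05, edgeR listed 3 members as lower in Drp1_KO (Stc2, Aars and Gdf15), where 4.81% of all tested genes were, and 0 as higher, where 4.89% were. DESeq2 listed 5 as lower, with Cebpb and Nupr1 added (4.23% of genes), and limma-voom listed Stc2 alone (4.77% of genes). Neither listed a member as higher (4.02% and 5.28% of genes were). For 0 members did the mice of the labels separate without overlap, as they did for 2.56% of all tested genes (1.27% with Drp1_KO above and 1.29% with it below).

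The median difference of the members lay close to 0, with single members further from it. The median log2 fold change, Drp1_KO minus Drp1_WT, was -0.09 over the 31 tested members and -0.00 over all tested genes, with 21 members below 0 and 10 above. Single members ran from -0.97 (Stc2) to 0.37 (Cth). A difference of 2-fold upward was outside the 95% interval of every tested member, and the highest upper bound was that of Cth (1.98-fold). The same held for 91.4% of all tested genes. Downward, the interval reached a halving for 5 members (Atf3, Cebpb, Sesn2, Stc2 and Gdf15), as for 12.4% of all tested genes. A decrease of 1.5-fold was outside the interval for 18 of the 31 members and for 66.9% of all tested genes. These intervals come from edgeR's standard errors and are not adjusted for the number of genes. Without KO tube 10 the median was again -0.09, and 4 members, Ddit4 added, were lower with an unadjusted p under 0.05 (4.76% of all tested genes were). Without that oocyte, WT tubes 11 to 15 and WT tube 29, the median was -0.06 and Stc2 and Ddit4 were listed as lower (3.24% of genes were); edgeR called 0 members both times. Members with the core in their window had a median of -0.06 (7 tested) and those without it -0.09 (19 tested).

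**Figure D2:**
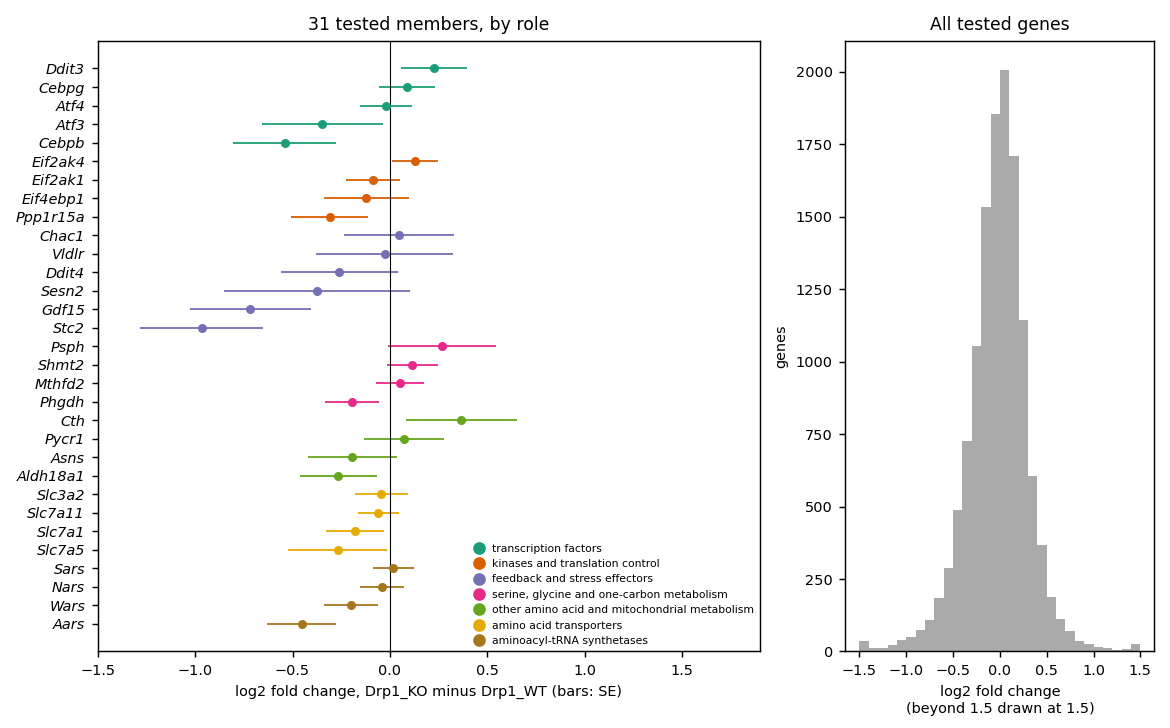
Left, the log2 fold change of the 31 tested members (edgeR, Drp1_KO minus Drp1_WT; bars are 1 SE), coloured by role; right, a histogram of all 12812 tested genes on the same kind of axis. Most members sit within 0.5 of 0, Stc2 (-0.97) and Gdf15 (-0.72) are lowest, and Cth (0.37) is highest.

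Among the transcription factor genes the level of Atf4 was close between the labels. Atf4 (chromosome 15, 80255184 to 80257541 on GRCm38) stood at 119.6, 127, 118 and 82.0 CPM in mice a to d and at 119, 98.3, 120.3, 122 and 106 CPM in mice 1 to 5. Mouse d was lowest of all 9, and the other 8 mice lay within 98.3 and 127 CPM. The log2 fold change was -0.02 (SE 0.13, 95% interval -0.31 to 0.27, adjusted p = 0.963 by edgeR), and its sign changed between settings. The 3 oocytes labelled Drp1_WT above the highest Drp1_KO oocyte (162 CPM) all came from tubes 11 to 15, and without those tubes the log2 fold change was 0.13.

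Ddit3 stood at 90.8, 98, 90.8 and 138 CPM in mice a to d and at 68.9, 103, 89.3, 72.8 and 111 CPM in mice 1 to 5. Mouse d was above all 8 others, and the remaining Drp1_KO mice lay inside the Drp1_WT range. Mouse d and mouse 5, the highest of the Drp1_WT mice, are the only mice from tubes 27 to 30, and with the tube set as a term the log2 fold change of Ddit3 was 0.19. Its log2 fold change was 0.23 (SE 0.17, 95% interval -0.14 to 0.59, adjusted p = 0.628 by edgeR). Without KO tube 10, mouse b was at 109.4 CPM of Ddit3 and the log2 fold change was 0.26 (adjusted p = 0.637 by edgeR). Cebpb, which encodes a C/EBP partner of ATF4, stood at 9.47, 11.2, 14.2 and 11.1 CPM in mice a to d and at 26.7, 11.99, 15.9, 20.2 and 9.19 CPM in mice 1 to 5. Mice 1, 3 and 4 were above every Drp1_KO mouse and mouse 5 was lowest of all. For Cebpb the log2 fold change was -0.54 (SE 0.26, adjusted p = 0.523 by edgeR), and 20.7% of the exon bases of Cebpb are shared with Tmem189 on the opposite strand, so reads there cannot be told apart without strand. Cebpg, another partner, ranged from 46.7 to 69.9 CPM in Drp1_KO and from 46.4 to 66.4 CPM in Drp1_WT. The 69.9 CPM is that of mouse b, which was at 59.8 CPM without KO tube 10. Atf3, a target and feedback factor, was at 0.809 CPM in mouse c and between 2.40 and 3.05 CPM in the other 8 mice. Atf5, a relative of Atf4, stayed between 0.0348 and 0.214 CPM.

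At the kinase step, Eif2ak1 was the most abundant eIF2 kinase mRNA per kilobase, at 28.7 ± 4.88 RPKM (SD, n = 5) in mice labelled Drp1_WT. Eif2ak4, the gene of the amino acid sensor GCN2, followed at 4.89 RPKM, Eif2ak3, the gene of the ER kinase PERK, at 0.517 RPKM and Eif2ak2, the gene of the double-stranded RNA sensor PKR, at 0.194 RPKM. Oma1 was high at 42.3 RPKM and Dele1 low at 0.240 RPKM. The HRI branch was thus uneven in mRNA, with the kinase and the protease far above the messenger between them.

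Eif2ak1 stood at 170.1, 139, 173 and 130.4 CPM in mice a to d and at 201, 155, 146, 179 and 131 CPM in mice 1 to 5. Both labels spanned much the same range, with mouse 1 highest. The log2 fold change was -0.09 (SE 0.14, 95% interval -0.39 to 0.22, adjusted p = 0.830 by edgeR), with 8.59% of the exon bases shared with Aimp2 on the opposite strand. Eif2ak4 stood at 35.8, 48.8, 38.5 and 36.02 CPM in mice a to d and at 36.9, 37.4, 35.7, 34.95 and 37.3 CPM in mice 1 to 5. Mouse b stood above the others, which lay within 34.95 and 38.5 CPM (log2 fold change 0.13, SE 0.12, adjusted p = 0.704 by edgeR). Without KO tube 10, mouse b was at 43.7 CPM.

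Ppp1r15a, the gene of GADD34, which guides the phosphatase that restores eIF2, stood at 67.8, 61.8, 61.4 and 45.4 CPM in mice a to d and at 107, 57.9, 65.97, 82.1 and 53.1 CPM in mice 1 to 5. Mice 1 and 4 lay above all Drp1_KO mice and the other 3 Drp1_WT mice among them. Its log2 fold change was -0.31 (SE 0.20, adjusted p = 0.582 by edgeR). Eif4ebp1, the gene of a translation repressor, ranged from 2.61 to 3.198 CPM in Drp1_KO and from 2.38 to 3.91 CPM in Drp1_WT.

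The feedback and stress effectors held both members with the most negative fold changes. Of 9, 6 were tested, 5 of them with a negative log2 fold change, and their median was -0.32. Stc2 (stanniocalcin 2, a secreted glycoprotein) stood at 2.88, 2.26, 1.507 and 2.90 CPM in mice a to d and at 4.26, 5.94, 2.01, 5.13 and 5.98 CPM in mice 1 to 5. Mouse 3 lay inside the Drp1_KO range and the other 4 Drp1_WT mice above it. Stc2 had the smallest unadjusted p among the members (0.00917, log2 fold change -0.97, SE 0.32, 95% interval -1.65 to -0.28), and its adjusted p was 0.499 by edgeR with Benjamini-Hochberg adjustment. In the alternatives that tested it (a minimum of 5 CPM in 4 mice removed it), its log2 fold change stayed between -1.16 and -0.79 and its adjusted p between 0.202 and 0.756. Across oocytes the lowest, median and highest were 0.648, 2.11 and 4.43 CPM in Drp1_KO and 1.19, 4.57 and 12.8 CPM in Drp1_WT. The 18 oocytes of each label came from only 4 and 5 mice, and by mouse the labels overlapped.

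Gdf15, the gene of a stress-induced hormone of the TGF-beta family, stood at 0.611, 1.18, 0.809 and 1.18 CPM in mice a to d and at 1.94, 1.93, 1.48, 1.31 and 1.17 CPM in mice 1 to 5. Only mouse 5 lay inside the Drp1_KO range. Its log2 fold change was -0.72 (SE 0.31, unadjusted p = 0.0372, adjusted p = 0.508 by edgeR), at levels of a few counts per oocyte. Without mouse 1, 2, 3, a or c in turn its unadjusted p was above 0.05, and the highest value, 0.108, came without mouse a. Ddit4 (REDD1, an mTORC1 inhibitor) stood at 2.09, 5.74, 3.86 and 2.56 CPM in mice a to d and at 4.21, 5.78, 4.31, 4.56 and 2.66 CPM in mice 1 to 5. Mouse 2 and mouse b were highest, and mouse b was at 1.96 CPM, the lowest of the 9, without KO tube 10. The log2 fold change was -0.26 (SE 0.30, adjusted p = 0.754 by edgeR) with that oocyte and -0.71 without it (unadjusted p = 0.0199, adjusted p = 0.559 by edgeR).

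In the other effectors, too, the mice of the labels overlapped. Chac1, a glutathione-degrading enzyme gene, ranged from 1.00 to 2.36 CPM in Drp1_KO and from 1.45 to 1.99 CPM in Drp1_WT. Sesn2 ranged from 0.197 to 0.835 and from 0.313 to 1.15 CPM, and Vldlr, a lipoprotein receptor gene, from 0.689 to 2.02 and from 1.10 to 1.25 CPM. Trib3 was highest in mouse 1 (1.61 CPM) and mouse d (1.03 CPM) and between 0.139 and 0.704 CPM in the other 7 mice. Nupr1 ran from 0 to 0.383 CPM in Drp1_KO and from 0.314 to 0.592 CPM in Drp1_WT. It was not tested by edgeR, and DESeq2 listed it as lower at an unadjusted p under 0.05 (4.23% of genes). Fgf21 was at 0 in mice a, c, d and 1, and at most 0.526 CPM (mouse 3) elsewhere.

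Serine, glycine and one-carbon metabolism gave 3 positive and 1 negative fold change among 4 tested members, with a median of 0.08. Mthfd2 stood at 201, 218, 177 and 184 CPM in mice a to d and at 217, 155, 182, 217 and 168 CPM in mice 1 to 5. The Drp1_KO mice lay within or at the edge of the Drp1_WT range (log2 fold change 0.05, SE 0.12, 95% interval -0.22 to 0.32, adjusted p = 0.890 by edgeR). Phgdh stood at 24.5, 21.9, 25.3 and 24.4 CPM in mice a to d and at 33.2, 21.7, 25.8, 31.1 and 26.0 CPM in mice 1 to 5. Its Drp1_KO mice were close together, and 4 of 5 Drp1_WT mice lay above them (log2 fold change -0.20, SE 0.14, adjusted p = 0.614 by edgeR). Shmt2, the mitochondrial serine hydroxymethyltransferase, ranged from 50.5 to 57.7 CPM in Drp1_KO and from 39.3 to 59.9 CPM in Drp1_WT, and Psph, the last enzyme of serine synthesis, from 3.05 to 4.73 and from 1.82 to 4.37 CPM. For Shmt2 the 57.7 CPM is that of mouse b, which was at 48.7 CPM without KO tube 10. Psat1 stayed at or under 0.589 CPM.

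Other amino acid and mitochondrial enzymes were mixed, with 2 of 4 tested members on each side of 0. Cth, the cystathionine gamma-lyase of cysteine synthesis, had the highest fold change of the members, with 38.9 to 72.6 CPM in Drp1_KO and 24.3 to 70.95 CPM in Drp1_WT (log2 fold change 0.37, SE 0.29, adjusted p = 0.644 by edgeR). Mouse b was at 70.3 CPM with KO tube 10 and at 49.4 CPM without it. Asns (asparagine synthetase) ranged from 3.35 to 5.45 and from 3.68 to 6.42 CPM, and Aldh18a1, which opens proline synthesis, from 12.2 to 16.03 and from 12.3 to 22.8 CPM. Pycr1, which closes it, ranged from 3.35 to 5.53 and from 3.88 to 5.84 CPM. For Pycr1 the 5.53 CPM is that of mouse b, which was at 3.65 CPM without KO tube 10. Pck2, mitochondrial PEP carboxykinase, was at or under 0.278 CPM.

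The 4 amino acid transporters all had fold changes below 0, none far from it (median -0.12). Slc3a2, the shared heavy chain, stood at 179, 192, 172 and 143 CPM in mice a to d and at 219, 146, 167, 197 and 156 CPM in mice 1 to 5. Mouse 1 was highest and mouse d lowest, with the rest interleaved (log2 fold change -0.05, SE 0.14, adjusted p = 0.915 by edgeR). Slc7a11, the cystine importer xCT, stood at 174, 154, 170.1 and 206 CPM in mice a to d and at 172, 195, 174, 193 and 182 CPM in mice 1 to 5. Mouse b was lowest and mouse d highest, with mice 1 to 5 between them (log2 fold change -0.06, SE 0.11, 95% interval -0.29 to 0.17, adjusted p = 0.847 by edgeR). Without KO tube 10, mouse b was at 168.1 CPM of Slc7a11, close to mouse c. Slc7a5, the LAT1 light chain, stood at 4.71, 5.95, 5.59 and 4.43 CPM in mice a to d and at 8.80, 6.21, 5.66, 7.49 and 3.17 CPM in mice 1 to 5. Its log2 fold change was -0.27 (SE 0.25), with mouse 5 below every Drp1_KO mouse. Slc7a1, a carrier of cationic amino acids, stood at 10.7, 9.60, 11.4 and 7.58 CPM in mice a to d and at 11.02, 10.5, 11.02, 11.8 and 11.3 CPM in mice 1 to 5 (log2 fold change -0.18, SE 0.15).

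Of the synthetases, which charge tRNA with their amino acid, Aars had the most negative fold change, with an interval that overlapped those of the other 3. Aars stood at 31.2, 25.3, 28.9 and 19.4 CPM in mice a to d and at 48.3, 32.3, 30.3, 38.8 and 29.9 CPM in mice 1 to 5. Mouse a lay above mice 3 and 5, and the other Drp1_KO mice below all Drp1_WT mice. The log2 fold change was -0.45 (SE 0.18, 95% interval -0.83 to -0.07, unadjusted p = 0.0227, adjusted p = 0.499 by edgeR), with 14.3% of its exon bases shared with Exosc6 on the same strand. Without WT tubes 11 to 15 it was -0.35 (unadjusted p = 0.130, adjusted p = 0.891 by edgeR): these 5 oocytes had a median of 47.7 CPM of Aars and the other 13 labelled Drp1_WT a median of 29.6 CPM.

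Nars stood at 239, 222, 199.8 and 198 CPM in mice a to d and at 259, 209, 191, 234 and 210.1 CPM in mice 1 to 5 (log2 fold change -0.04, SE 0.11). Sars stood at 179, 165, 172 and 154 CPM in mice a to d and at 191, 146, 157, 172 and 160.3 CPM in mice 1 to 5 (log2 fold change 0.02, SE 0.10). Both sets of mice were interleaved, and both intervals stayed within -0.28 and 0.24. Wars stood at 83.1, 68.3, 82.7 and 61.8 CPM in mice a to d and at 106, 77.8, 77.5, 91.01 and 72.95 CPM in mice 1 to 5, with mice 1 and 4 above all Drp1_KO mice (log2 fold change -0.20, SE 0.14, adjusted p = 0.609 by edgeR). The plot of single oocytes by mouse shows how far oocytes of a mouse differ beside these means.

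**Figure D3:**
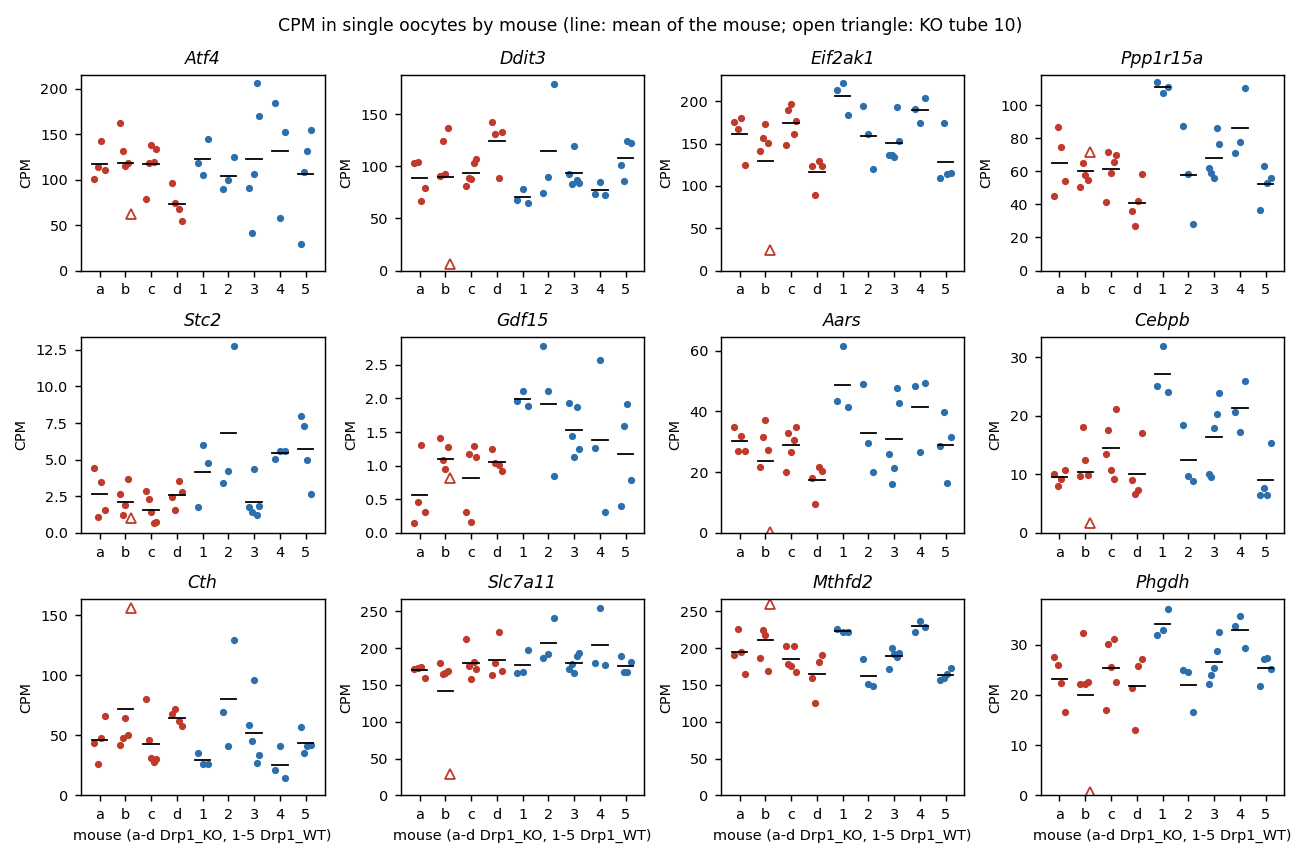
CPM of 12 members in each of the 36 oocytes, grouped by mouse (red, a to d, Drp1_KO; blue, 1 to 5, Drp1_WT); lines are means of the mouse and the open triangle is KO tube 10, which enters the mean of mouse b. Stc2 and Gdf15 reach their highest values in oocytes labelled Drp1_WT, Atf4 spans 29.6 to 207 CPM within that label, and KO tube 10 lies far below the rest for Ddit3, Eif2ak1, Aars, Slc7a11 and Phgdh.

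Further genes of the pathway were listed apart from the 37. Of 16 genes of the response machinery (kinases, eIF2 and eIF2B subunits, regulators) all were tested. By edgeR 0 were called (0.0156% of all tested genes) and 0 were listed at an unadjusted p under 0.05 (4.81% of genes were lower and 4.89% higher). Their median log2 fold change was -0.09, against -0.0032 over all tested genes. DESeq2 and limma-voom called 0 as well (0.276% and 0.0844% of genes). At an unadjusted p under 0.05 each listed 1 gene, Eif2b5 as lower (4.23% of genes by DESeq2) and Eif2s2 as higher (5.28% by limma-voom). The smallest edgeR p belonged to Eif2b5 (0.0537, -0.41) and Eif2b4 (0.0669, -0.24), subunits of the exchange factor that recharges eIF2, and to Eif2s2 (0.0715, 0.33), a subunit of eIF2 itself. Of 22 other ATF4 partners and targets 13 were tested, 12 with a negative log2 fold change, with a median of -0.15. Of all 12812 tested genes, 6480 had a negative log2 fold change. All 3 tools called 0 of these partners and targets, and each listed Tars alone, as lower, at an unadjusted p under 0.05. Of all tested genes, edgeR listed 4.81% as lower, DESeq2 4.23% and limma-voom 4.77%. Tars, another synthetase gene, had an unadjusted p of 0.0328 (adjusted p = 0.507 by edgeR). Its 4 Drp1_KO mice (33.5 to 44.3 CPM) lay below the 5 Drp1_WT mice (44.99 to 50.04 CPM), as for 1.29% of all tested genes. Gars (p = 0.0645, log2 fold change -0.32) and Mars (p = 0.0817, -0.40) came next. Both are synthetase genes, as are Cars, Eprs, Iars and Lars of the same list, whose log2 fold changes ran from -0.12 to -0.04 with p from 0.414 to 0.759.

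Tube 10 of mouse b, labelled Drp1_KO, stood apart in the pathway as in the rest of its transcriptome. Among 35 members of at least 1 CPM in some oocyte, it lay above all 35 other oocytes for 8 (15% of all such genes did) and below all others for 13 (38.1% did). Its mitochondrial genome share was 5.61% of counts, against at most 0.669% elsewhere. Its oocyte markers summed to 15110 CPM, against 18720 to 33100 CPM. That sum held opposite shifts, with Dppa3 at 10820 CPM, against at most 5355 CPM in the others, and Oosp1 within their range. The rest of these markers lay below all other oocytes. Gdf9, for one, was at 125.7 CPM (2590 CPM or more elsewhere) and Mos at 2.45 CPM (609 CPM or more elsewhere). The part of the mitochondrial share and the markers in the members' values was not tested.

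The low values in that oocyte included genes of tRNA charging, serine synthesis and transport. Aars was at 0.409 CPM (2 counts) against 9.36 to 61.4 CPM in the other oocytes, while Nars was at 213 CPM, within the others' range of 136 to 315 CPM. Phgdh was at 0.613 CPM (3 counts) against 13.01 to 37.2 CPM, but Psph, of the same route, was at 6.13 CPM within 0.491 to 7.74 CPM. Of the exon bases of Psph, 10.4% are shared with a transcript of Cct6a on the opposite strand, so reads there cannot be told apart without strand. Both tRNA charging and serine synthesis thus held members below and within the others' range, and the synthetases Sars and Wars were below it too.

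Ddit3 was at 6.54 CPM against 65 to 179 CPM, and Cebpb at 1.64 CPM against 6.48 to 32.0 CPM. Eif2ak1 was at 24.5 CPM (88.8 to 222 CPM elsewhere), Slc7a11 at 29.02 CPM (158 to 255 CPM), Wars at 11.9 CPM (39.0 to 118 CPM), Sars at 73.98 CPM (93.1 CPM or more) and Slc7a1 at 1.64 CPM (4.34 to 16.4 CPM). Slc3a2 was also below all others, and Chac1, Asns and Slc7a5 had 0 counts, for which 3 counts (0.613 CPM) is the limit; Slc7a5 was thereby at least 8.91-fold under the median of the others. Atf4, at 62.3 CPM, lay within the range of the others, 29.6 to 207 CPM.

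Ddit4 was the member furthest above, at 23.5 CPM against at most 8.09 CPM in the other oocytes. Pycr1 (13.5 CPM), Cth (156 CPM), Cebpg (99.3 CPM), Atf3 (5.72 CPM), Shmt2 (86.0 CPM), Mthfd2 (259.5 CPM) and Eif2ak4 (59.5 CPM) were also above all others, by 1.05-fold to 1.53-fold over the next oocyte. With TMM factors in place of library totals, 12 members lay above (25.1% of all such genes did) and 11 below (31.4% did), so the share of all genes moved as well.

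**Figure D4:**
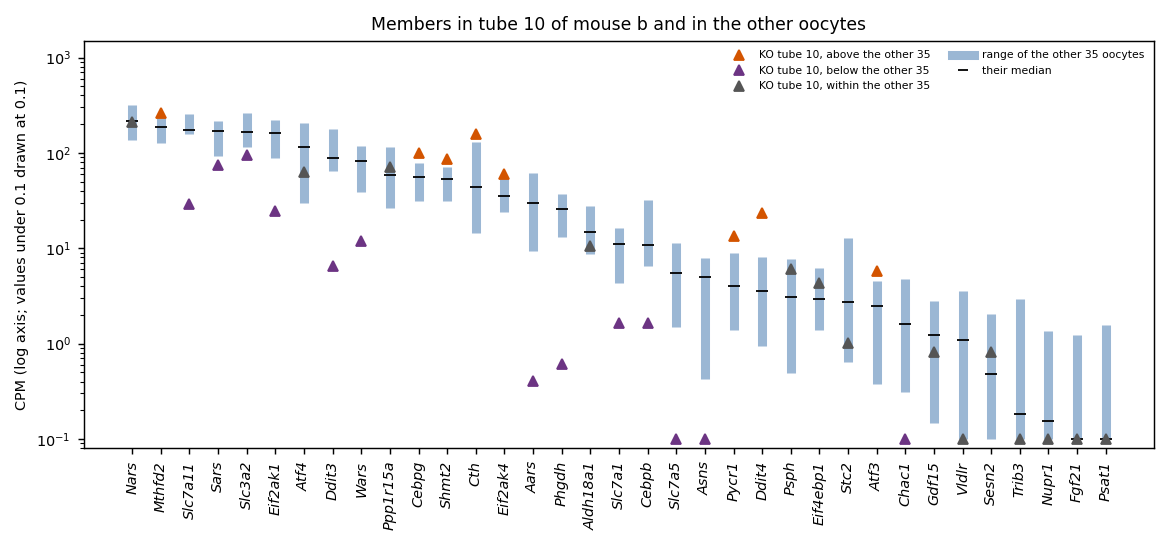
CPM (log axis) in KO tube 10 (triangles) for the 35 members that reach 1 CPM in some oocyte, with the range (bar) and median (dash) of the other 35 oocytes; values under 0.1 are drawn at 0.1. Purple triangles (13 below all others) include Aars, Phgdh and Ddit3, far under their bars, and orange ones (8 above) are led by Ddit4.

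Oocytes of the same mouse differed most in Atf4 among the well-measured members. Over 35 oocytes without KO tube 10, the SD between oocytes of a mouse on the log2(CPM+1) scale was 0.603 for Atf4, larger than for 95.6% of 8730 genes of at least 5 CPM. Within mouse 3 alone, Atf4 went from 41.4 CPM in tube 8 to 207 CPM in tube 11, and within mouse 5 from 29.6 to 154.5 CPM. Tubes 11 and 12 of mouse 3 are among those whose Dnm1l goes against their label, and without them mouse 3 ran from 41.4 to 106 CPM. Without WT tubes 11 to 15, a setting chosen after seeing the data that leaves 30 oocytes, the SD of Atf4 was 0.509, still the largest of the 20 members and larger than for 92.0% of genes. Over the 35 oocytes Cth came next after Atf4 (SD 0.536), then Slc7a5 (0.467), Aars (0.460) and Cebpb (0.449). Mthfd2 (0.150) and Slc7a11 (0.151) were at the other end, varying less than all but 4.07% and 4.27% of these genes. The median over the 20 members was 0.288 and over all 8730 genes 0.308.

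Between oocytes of a mouse, some members varied together and most pairs only weakly. With mouse means removed, Spearman's rho over these 35 oocytes had a median of 0.19 over the 190 pairs of 20 members, from -0.62 to 0.81, and a median of 0.03 over all pairs of the 8730 genes. Its median was 0.11 for pairs of transporters and 0.13 for pairs of transcription factors. For the 6 pairs of synthetases it was 0.58 to 0.81, highest for Sars with Wars, where 3.65% of all gene pairs reached the lowest of these values. Ppp1r15a followed Sars (0.77) and Wars (0.75), and Eif2ak1 followed Aars (0.76), Wars (0.74) and Sars (0.72). Atf4 varied little with the synthetases: its rho was 0.17 with Aars, 0.15 with Sars, -0.01 with Wars and -0.14 with Nars. With Phgdh it was 0.10. Its values furthest from 0 were 0.45 with Slc7a1, -0.43 with Cth, 0.37 with Eif2ak4 and 0.33 with Cebpg. Cth ran opposite to many members, with -0.62 against Ppp1r15a and -0.53 against Slc7a1. These values describe pairs of genes in the same libraries, which share depth, amplification and total RNA, and the part of those was not tested. The 35 oocytes include WT tubes 11 to 15, whose Dnm1l goes against their label. In mouse 3, Aars was at 47.72 and 42.72 CPM in tubes 11 and 12. In tubes 7, 8 and 10 it was at 15.96 to 26.13 CPM. Sars was at 176.1 and 173.1 CPM in the former and at 142.3 to 162.0 CPM in the latter. Removing mouse means leaves such differences in, and their part in rho was not tested.

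**Figure D5:**
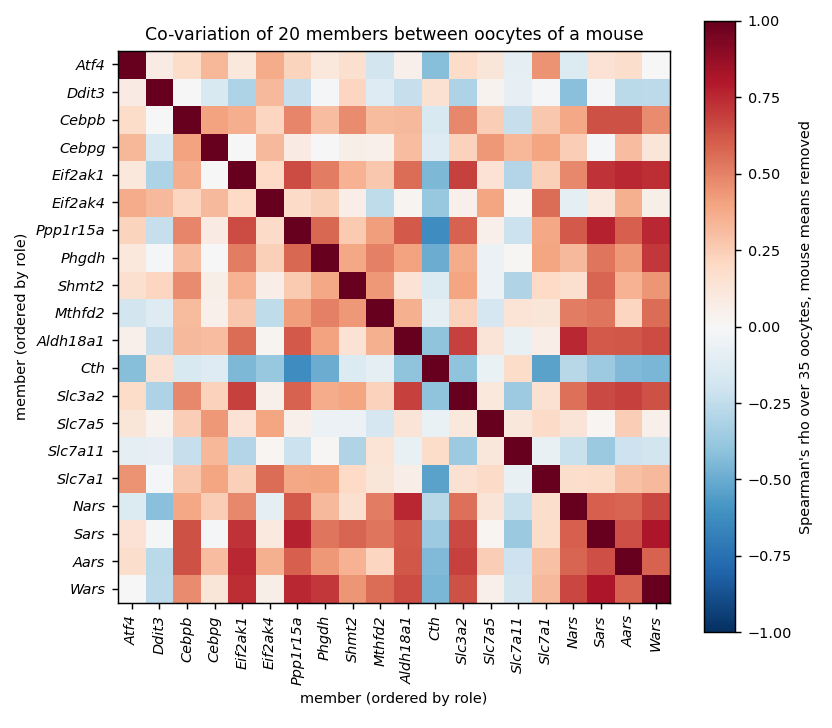
Spearman's rho between 20 members over 35 oocytes with mouse means removed, ordered by role; red is positive and blue negative on a scale of -1 to 1. The synthetases at the lower right form a red block that also takes in Eif2ak1, Ppp1r15a, Aldh18a1 and Slc3a2, while the Cth row is mostly blue and the Ddit3 and Slc7a11 rows are pale.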

How the data were processed

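RNA of single oocytes was made into cDNA with a SMARTer Ultra Low Input kit and into Nextera XT libraries, read in single-end mode on a HiSeq, per the labels' protocols. The build GRCm38 and the tools featureCounts, Picard, STAR and Subread 1.5.2 are listed in the submitters' processing notes. The authors deposited 1 table of raw counts per gene; the sources used here do not state the strand setting, the handling of multi-mapping reads or the annotation, and PCR copies may count as reads.

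Genes were named with GENCODE M21 (21876 of 21968 IDs). Counts were summed per mouse and fitted over all genes with edgeR 4.0.16 (R 4.3.3; TMM, its low-count filter, robust quasi-likelihood), which left 12812 genes, with Benjamini-Hochberg adjustment at 0.05. Per-mouse CPM use TMM factors, and single-oocyte CPM use library totals. The 95% intervals use the t quantile at the fit's degrees of freedom. RPKM divide CPM by merged exon length. DESeq2 1.42.0 and limma 3.58.1 were alternatives. The scripts were tested on simulated data. The members and lists were chosen with earlier results of these data known.

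Named members were Atf4, the 6 with the smallest p, the 6 highest per length, those more than 2-fold beyond every other oocyte in KO tube 10 and those at the kinase or phosphatase step; in further lists, the 3 smallest p. Others named singly (Cth, Psat1, Trib3 and the like) were chosen after their values were seen. Copies at least 95% identical in sequence exist for Phgdh (9 pseudogenes), whose reads may be split. A stretch of 373 bases in Slc7a11 matches Tuba1a (96.0% identical), Tuba1b (96.2%) and Tuba1c (95.4%), which were also counted. It matches several pseudogenes and a lincRNA as well, so reads there may go to more than 1 gene.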

Additional observations from a re-analysis of the deposited data

Results flagged for a closer look

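A single mouse stood far from the others of its label in 2 of 62 sets of member values, where chance gives about 1 in 20. For Ddit3, mouse d of Drp1_KO was at 138 CPM and mice a to c at 90.8 to 98 CPM. The 98 CPM is that of mouse b with KO tube 10, which held 6.54 CPM. Without that oocyte mouse b was at 109.4 CPM, nearer to mouse d. Mouse d is the only Drp1_KO mouse from tubes 27 to 30, and mouse 5, the only Drp1_WT mouse from them, was the highest of its label at 111 CPM. For Pycr1, mouse 2 of Drp1_WT was at 5.84 CPM and the other 4 mice at 3.88 to 4.14 CPM.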

How the results depend on the processing

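Across 20 alternatives to the edgeR fit, 0 members were called in each, and the lowest adjusted p was 0.202 (Stc2, DESeq2). Of 376 fold changes of 19 members, 355 kept their sign and 21, in 7 members, did not; none of the 21 passed a test, and the cause was not tested. Members with an unadjusted p under 0.05 numbered 3 with edgeR (9.69% of all tested genes), 5 with DESeq2 (8.24%), 1 with limma-voom (10.0%), 1 with genes of at least 5 CPM in 4 mice (9.87%; fewer members tested), and 1 (without mouse 1; 6.35%) to 6 (without mouse 5; 15.8%) with each mouse left out. Atf4 turned to 0.0537 with limma-voom, 0.13 without WT tubes 11 to 15, 0.082 without tubes 27 to 30, and 0.18 with tube 29 of mouse 5, WT tubes 11 to 15 and KO tube 10 all left out, a setting chosen after seeing the data. Nars turned to 0.0096 with limma-voom, Slc3a2 to 0.0026 without WT tubes 11 to 15, and Mthfd2 and Sars to -0.0381 and -0.0655 with library totals, which moved the median of all genes to -0.09 and the members below and above 0 to 26 and 5. With each mouse left out, log2 fold changes ran from -0.0884 to 0.10 for Atf4, -0.0942 to 0.0243 for Nars, -0.11 to 0.0414 for Slc3a2, -0.007 to 0.11 for Mthfd2, -0.021 to 0.0739 for Sars, -0.14 to 0.0006 for Slc7a11 and -0.15 to 0.0007 for Eif2ak1. Calls over all genes numbered 2 with edgeR, 38 with DESeq2 and 9 with limma-voom. No paired analysis was possible because the labels give letters to the Drp1_KO mice and numbers to the Drp1_WT mice, which pair none of them. With the tube set (1 to 15, or 27 to 30 for mice d and 5) as a term, the same 3 members, Stc2, Aars and Gdf15, were listed (13.9% of genes), with unadjusted p of 0.00571, 0.00793 and 0.0449 and adjusted p of 0.262, 0.277 and 0.347 by edgeR. Members of under 1 CPM rest on a few counts per oocyte, so small differences in them were not detectable at this depth.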
